A study of Mus musculus with 9 samples.

Results

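Thymic tuft cells at steady state are described here from the 5 libraries labelled untreated, out of 9 in the series, chosen by that label and by no measured value. Each holds tuft cells sorted in bulk from the thymus of young wild-type female mice that received no treatment, and the 4 libraries of irradiated mice were not analysed here. The libraries were made by MARS-seq, which captures polyadenylated RNA and counts fragments from the 3′ ends of transcripts. Neither the sort gate and cell number nor the mice behind a library could be read from the sources at hand, so p-values measure the spread between libraries, which may be technical.

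Tuft cells are chemosensory epithelial cells with an apical tuft of microvilli. They use the intracellular signalling of taste cells, in which a G protein-coupled receptor acts through a G protein and phospholipase C to open the cation channel Trpm5, and they can release interleukin 25, acetylcholine and leukotrienes. In the thymus they lie in the medulla as one of the mimetic cell types, epithelial cells that carry gene programmes of peripheral tissues, and they depend on the transcription factor Pou2f3.

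The libraries held between 686082 and 978442 counts, with a mean of 772080 ± 120000 (SD, n = 5), over 13223 listed genes. All levels below are TMM-scaled CPM, a gene's count relative to its library total after adjustment by a trimmed mean of gene ratios, and 1 count was worth between 1.06 and 1.51 CPM. Between 12634 and 12917 listed genes had at least 1 count, a mean of 12783 ± 127. Thinning all libraries to 686082 counts left 12738 ± 111. Every listed gene had 6 counts or more in the highest of the 9 libraries, irradiated ones included. The number detected therefore depends on which genes are listed. A gene at 0 in a library may still lie at up to 3.18, 4.52, 3.76, 4.02 or 4.26 CPM in replicates 1 to 5, the worth of 3 counts, a limit that covers counting error only.

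Replicates 3, 4 and 5 lay close together, and replicates 1 and 2 stood apart from them and from each other. Among replicates 3 to 5 the Spearman correlation over genes, which are not independent points, was 0.892 to 0.91, against 0.784 to 0.853 for every pair that held replicate 1 or 2. Between pairs of replicates 3 to 5, 4.48% to 9.24% of the genes compared differed beyond counting noise, and between the other pairs 19.3% to 23%. On principal component 1 (41.7% of variance) the scores set replicate 2 at 51.1 and the others between -20.9 and -2.49. Component 2 (30.5%) set replicate 1 at 43.9 and the others between -20.1 and -7.42. Values are therefore given for every library. A gene is said to pass the test for spread where its counts differed between the 5 libraries beyond counting noise, by a Pearson chi-square test with Benjamini-Hochberg adjustment at 0.05 over all genes with a mean of at least 10 counts. List means that rest on replicate 1 or 2 are also given without it.

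The most abundant messages were those of antigen presentation, the cytoskeleton, protein synthesis and heat shock. B2m, the light chain of MHC class I molecules, ranked 1 of all genes at 7385, 10730.0, 7589.7, 7132 and 7480.4 CPM in replicates 1 to 5, a mean of 8063 ± 1500.2 CPM (SD, n = 5). It was the top gene in every library except replicate 1, where Actb, cytoplasmic beta-actin, stood above it. Actb was at 9492, 6324, 5657, 4746 and 4133 CPM, highest in replicate 1 and lowest in replicate 5. The MHC class I heavy chains H2-D1 (5239 ± 682 CPM) and H2-K1 (4136 ± 925 CPM) ranked 3 and 5, and reads of these similar genes could have been split between them.

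Of the 30 genes with the highest mean level, 10 encode proteins of the cytosolic ribosome, led by Rplp1 (4053 ± 1257 CPM), Rpl41 (3898 ± 518 CPM) and Rps29 (3780.2 ± 822 CPM). All 3 were highest in replicate 1. Their many processed copies in the genome make the level of a single ribosomal protein gene uncertain. Epithelial and tuft cell genes stood among the same 30, with the keratins Krt18 (rank 10) and Krt8 (rank 29) of simple epithelia and the actin-bundling protein Avil (rank 27). Fabp4, a fatty acid carrier known from adipocytes and capillary endothelium, ranked 9 at 3460.5, 2727, 5732, 4572 and 1668 CPM. It was highest in replicate 3 and lowest in replicate 5. The endothelial markers Pecam1 and Cdh5 were at 206, 119, 277, 266 and 143 and at 94.4, 45.2, 148, 174 and 76.6 CPM in the same order of libraries, and their part in the level of Fabp4 was not tested.

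Counts were spread over many genes. A mean of 739 ± 41.1 genes (SD, n = 5) made up 50% of a library's counts, from 677 in replicate 1 to 788 in replicate 3, and the 100 most abundant genes took 20.6% to 24.4%. By mean level, 113 genes reached 1000 CPM and held 22.7 ± 1.52% of the counts, 1934 genes between 100 and 1000 CPM held 45.8 ± 1.71%, and 7880 genes between 10 and 100 CPM held 29.7 ± 0.363%. Of the top 30 genes of each library 12 were in the top 30 of all 5, and of the top 100, 68 were.

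**Figure D1:**
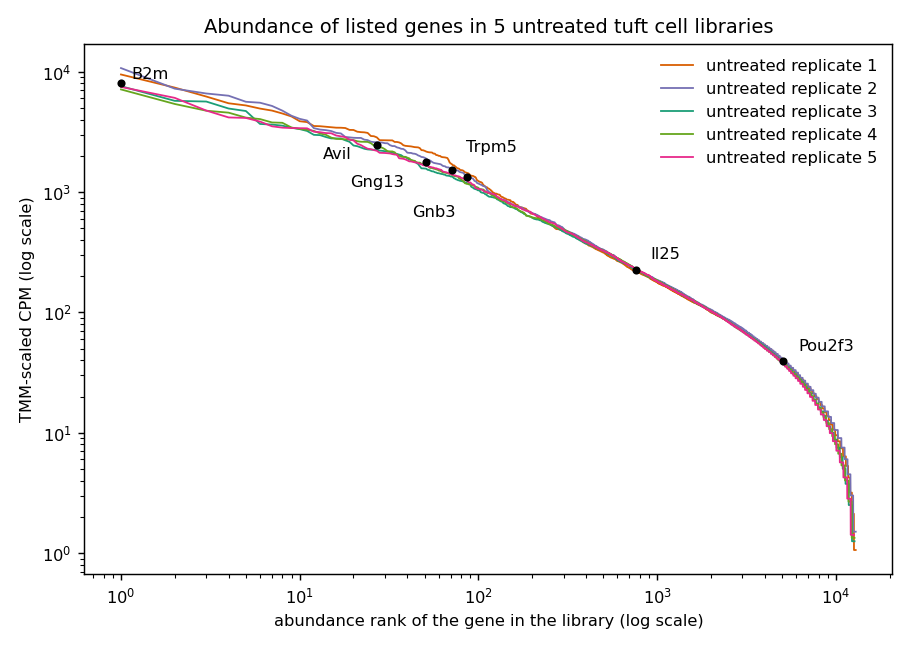
TMM-scaled CPM of each gene with a count against its abundance rank in each of the 5 untreated libraries, both axes on log scales, with points for the mean of named genes. Avil lies at rank 27 of the mean and Pou2f3 at rank 5093.

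By class, the largest named group was the cytosolic ribosomal proteins, 82 genes with 13.5%, 9.87%, 8.49%, 8.55% and 8.32% of the counts in replicates 1 to 5. Replicate 1 stood above the other 4. Nuclear genes of the respiratory chain and ATP synthase, 94 in number, took 3.19% to 3.35%, and heat shock proteins with their J-domain partners 1.67% to 2.58%. The 300 genes classed as long non-coding RNA by annotated biotype held 0.787 ± 0.0503% of the counts. The class includes genes annotated as processed transcripts, among them Tmem134 and Ifi30, which also have protein products. Neat1, the scaffold RNA of nuclear paraspeckles, led them at rank 64 with 1581 ± 384 CPM, and Malat1, an RNA of nuclear speckles, was at 199 ± 26.3 CPM. Rn45s, the ribosomal RNA precursor, was at 1538 to 2204 CPM and is named after its value was seen. Mitochondrially encoded genes were not analysed here.

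Heat shock genes were abundant in all 5 libraries. Hspa1a, an inducible HSP70 chaperone, ranked 4 of all genes at 5472, 3218, 4717, 4159 and 3522 CPM, and its neighbour Hspa1b ranked 28 at 3176, 1753, 2617, 2551 and 2069 CPM. In both, replicate 1 was highest and replicate 2 lowest. The constitutive chaperone Hspa8 was at 3222 ± 727 CPM and the small heat shock protein Hspb1 at 2538, 2353, 3338, 2837 and 1892 CPM. Hsph1, a nucleotide exchange factor of HSP70, was at 907, 255, 324, 363 and 325 CPM and the mitochondrial co-chaperonin Hspe1 at 1212, 589, 559.5, 491 and 471 CPM. For these 2 genes replicate 1 lay far above the other 4, which were close together. The summed level of the heat shock list was 24058, 15133, 19673, 18542 and 15873 CPM, and 10 of its 12 tested members were highest in replicate 1.

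The sequences upstream of Hspa1a, Hspa1b and Hspb1 are shown because they hold the core letters of the element through which heat shock factors act and because they show how alike Hspa1a and Hspa1b are. Each is the 250 bases before the RefSeq transcript start on GRCm38.p6, at chr17:34972157-34972406 (minus strand), chr17:34959239-34959488 (minus strand) and chr5:135887669-135887918 (plus strand). Capitals mark matches to GAANNTTC, the core of the heat shock element, which reads the same on both strands.
Hspa1a: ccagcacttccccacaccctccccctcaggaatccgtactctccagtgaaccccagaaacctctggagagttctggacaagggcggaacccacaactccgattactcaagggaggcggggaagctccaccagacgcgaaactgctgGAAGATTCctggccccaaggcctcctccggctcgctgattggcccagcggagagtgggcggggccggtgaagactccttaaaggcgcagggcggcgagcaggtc
Hspa1b: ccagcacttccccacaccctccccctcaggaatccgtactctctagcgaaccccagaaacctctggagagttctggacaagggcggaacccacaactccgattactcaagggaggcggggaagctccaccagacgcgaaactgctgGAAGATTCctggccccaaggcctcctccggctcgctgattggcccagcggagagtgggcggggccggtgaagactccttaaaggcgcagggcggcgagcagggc
Hspb1: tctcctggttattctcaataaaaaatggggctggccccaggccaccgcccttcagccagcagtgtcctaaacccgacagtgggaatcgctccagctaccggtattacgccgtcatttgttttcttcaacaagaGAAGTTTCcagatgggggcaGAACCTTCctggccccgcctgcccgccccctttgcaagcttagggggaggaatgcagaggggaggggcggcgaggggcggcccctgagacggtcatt
The windows of Hspa1a and Hspa1b were identical at 247 of 250 bases, and reads of genes this alike could have been split or moved between them, so their separate levels are uncertain. The match began 104 bases before the start in Hspa1a and Hspa1b, and 117 and 97 bases before it in Hspb1. Of the heat shock list, 10 genes had a promoter in the RefSeq table with 15 windows in all. A match was in 6 of the 15 windows, each of another gene, and in 6.69% of all 32851 promoter windows of the same length. The near copies Hspa1a and Hspa1b account for a pair of the 6. The windows of Hspd1 and Hspe1 overlap on opposite strands, and their matches are the same bases of the genome. The 6 matches are therefore not independent. A match is a run of letters and not a measured binding site.

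Immediate early genes, which are switched on within minutes of stimulation and are known to respond to tissue dissociation, were also high. Fos, a subunit of the transcription factor AP-1, ranked 24 at 2415, 1564, 2791, 3224 and 2523 CPM. Its partners Jun and Junb were at 1072 ± 264 and 1077 ± 289 CPM, the zinc finger factors Egr1 and Klf4 at 1492 ± 441 and 1267 ± 233 CPM, and Atf3, a stress-induced factor, at 789 ± 259.5 CPM (SD, n = 5). All 6 were lowest in replicate 2, as were 19 of the 24 tested members of the list. Its summed level was 8110.4 CPM in replicate 2 and 13367 to 16344 CPM in the others.

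The levels of 6 tuft cell marker genes were read in each library, and all 6 had counts in every one. Nearly every gene did so in any single library (12634 to 12917 of 13223). Detection alone therefore cannot check the tuft cell label, and the levels are given instead. Avil, at chr10:127000709-127020994 (plus strand) in GENCODE M21 on GRCm38, was at 2027, 1466, 2693, 2769 and 3432 CPM in replicates 1 to 5. Trpm5, at chr7:143069153-143094642 (minus strand), was at 1214, 890.3, 1813, 1682 and 2044 CPM. Gnb3, the beta subunit of the taste G protein, at chr6:124834240-124840275 (minus strand), was at 1032, 795, 1569, 1699 and 1577 CPM. For each of these 3, replicate 2 was lowest, replicate 1 next, and replicates 3 to 5 highest. Gng13, the gamma subunit, at chr17:25717171-25719406 (plus strand), was at 1670.3, 1182, 2188, 1758 and 2122 CPM, in the same order. Il25, the cytokine that activates type 2 lymphocytes, at chr14:54932695-54935837 (plus strand), was at 208, 58.7, 243, 303 and 322 CPM. Replicate 2 held far less of Il25 than any other library. Pou2f3, at chr9:43123939-43210369 (minus strand), was at 24.4, 16.6, 41.4, 49.5 and 63.8 CPM, the lowest of the 6 markers in every library.

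By abundance Avil ranked 27 over the 5 libraries, Gng13 51, Trpm5 71, Gnb3 86, Il25 759 and Pou2f3 5093. Within single libraries the rank ran from 8 to 79 for Avil, 28 to 99 for Gng13, 35 to 128 for Trpm5, 50 to 153 for Gnb3, 507 to 3640 for Il25 and 3232 to 8331 for Pou2f3, each at its lowest place in replicate 2. Levels from 3′ ends are not divided by length. Divided by the length of the longest annotated transcript the ranks were 106 for Avil, 18 for Gng13, 261 for Trpm5, 133 for Gnb3, 431 for Il25 and 4464 for Pou2f3. The summed level of the 6 markers was 7391 ± 2072 CPM (SD, n = 5), from 4409 in replicate 2 to 9561 in replicate 5, and 9043 ± 699 CPM over replicates 3 to 5. In a bulk sample, fewer cells of a type and less RNA per cell cannot be told apart. Exons of Avil, Trpm5 and Gng13 overlap genes on the opposite strand, and since no strand setting is stated, reads of such pairs cannot be told apart. The same holds for Krt8, Lrmp, Jun, Junb, Itpr3, Tas1r3, Il17rb, Il4ra, Alox5ap, Ltc4s, Ptgs1, Ptpn18, Ptpn6, Sh2d7, Elf3, Foxe1, Dclk1, Krt5, Krt10, Aire, Hspa1a, Hspe1, Aldoa, Vcp, Malat1, Irf7, Ccl25 and Cxcl10.

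**Figure D2:**
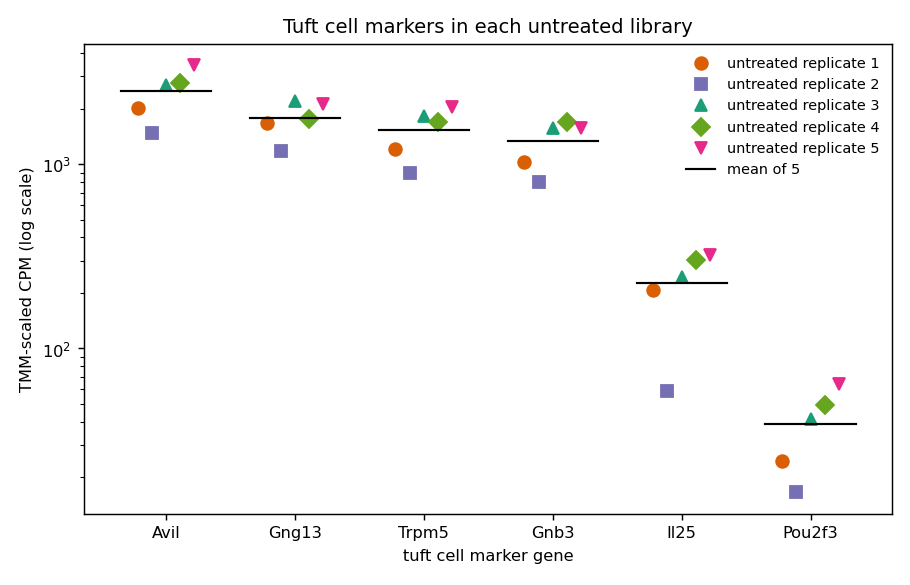
TMM-scaled CPM (log scale) of the 6 tuft cell markers, 1 point for each untreated library and a bar at the mean of the 5. Replicate 2 is the lowest point for all 6 genes, from 1466 CPM of Avil to 16.6 CPM of Pou2f3.

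The signalling chain of taste cells was present from G protein to channel. Besides Gnb3, Gng13 and Trpm5, the phospholipase Plcb2 was at 464, 301, 632, 607 and 689 CPM, and gustducin, the alpha subunit encoded by Gnat3, at 461, 366, 542, 499 and 333 CPM. Plcb2 was lowest in replicate 2 and highest in replicate 5, whereas Gnat3 was lowest in replicate 5. Itpr3, the inositol trisphosphate receptor that releases stored calcium, was at 161, 152, 181, 182 and 150.3 CPM and did not pass the test for spread. Rgs13, which shortens G protein signals, was at 256 to 472 CPM. The taste receptor chains Tas1r1 and Tas1r3 were lower, at 38.8 to 75.3 and 24.1 to 80.3 CPM.

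Enzymes that make leukotrienes and prostaglandins were abundant. Alox5ap, which presents arachidonic acid to lipoxygenase, was at 738, 599.5, 793, 1027 and 1204 CPM, Alox5, the lipoxygenase, at 339, 269.6, 506, 602 and 759 CPM, and Ltc4s, which makes leukotriene C4, at 681, 568, 783, 821 and 1019.8 CPM. The cyclooxygenase gene Ptgs1 was at 461, 381, 542, 576 and 712 CPM. In these 4 genes replicate 2 was lowest and replicate 5 highest. Ptgs2, the inducible cyclooxygenase, was instead at 236 CPM in replicate 2 and 29.5 to 58.2 CPM in the other 4. Chat, which makes acetylcholine, stood at 16.6 to 48.2 CPM, and the epithelial cytokine Tslp, which did not pass the test, at 11.3 to 18.4 CPM.

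Among receptors of type 2 immunity Il17rb, a chain of the interleukin 25 receptor, was at 155, 107, 188, 191 and 255 CPM, lowest in replicate 2 and highest in replicate 5. The common gamma chain Il2rg was at 105, 121, 96.6, 100.4 and 65.2 CPM, with the reverse order of these libraries. Il4ra was at 24.1 to 27.1 CPM, Il13ra1 at 54.2 to 90.8 CPM and the succinate receptor Sucnr1, known from intestinal tuft cells, at 12.8 to 24.1 CPM. These 3 did not pass the test.

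Tuft cells also carry signalling genes otherwise typical of leukocytes. The adaptor Sh2d6 was at 1440.0, 1195, 2079, 2439 and 3146 CPM and its relative Sh2d7 at 473, 343, 573, 631 and 974 CPM. The phosphatases Ptpn18 and Ptpn6 were at 2023 ± 660.4 and 1034 ± 271 CPM and the kinase Bmx at 586 ± 194 CPM (SD, n = 5). Each of the 5 was lowest in replicate 2 and highest in replicate 5. Of the 17 tested members of the list, 11 were lowest in replicate 2 and 9 were highest in replicate 5. The highest library was replicate 1 for 4 members, replicate 4 for 3 and replicate 2 for 1. Ptprc, the pan-leukocyte phosphatase CD45, was at 149.6 CPM in replicate 1 and 17.4 to 36.2 CPM in the rest. The 10 tested thymocyte markers were also highest in replicate 1, and their part in the level of Ptprc was not tested.

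Among transcription factors Spib, an ETS factor known from lymphoid and microfold cells, was at 706, 773, 956, 1084 and 1445 CPM. The epithelial ETS factor Elf3 was at 371, 322, 467, 649 and 804 CPM and Foxe1, a forkhead factor, at 80.7, 91.9, 201, 191 and 196 CPM. Spib and Elf3 were highest in replicate 5, and for Foxe1 replicates 3 to 5 lay close together and well above replicates 1 and 2. Gfi1b, a zinc finger repressor, stood at 24.1 to 99.3 CPM and Ascl2, which did not pass the test, at 31.6 to 44.2 CPM.

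Structural genes gave the highest sum of the tuft cell lists, at 12200.0, 11506, 15535, 17281 and 20193 CPM in replicates 1 to 5. That sum includes Krt18 and Krt8, which are also in the general epithelial list, so it is not specific to tuft cells. Krt18 was at 2587, 3106, 3567, 3790.4 and 4760.0 CPM, Lrmp, an endoplasmic reticulum membrane protein, at 1932, 1448, 2212, 2622 and 3093 CPM and the tubulin Tuba1a at 1336, 1148, 1867, 2141 and 2235 CPM. All 3 were highest in replicate 5. Krt8 was at 1574, 2127, 2248, 2754 and 3178.5 CPM, also highest there. Espn, an actin bundler of microvilli, was at 532 to 917 CPM and Dclk1, the microtubule-associated kinase used to stain tuft cells, at 146, 114, 149, 183 and 224 CPM.

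Of 95 genes in the 6 tuft cell lists, 83 were listed and 76 had the mean of 10 counts needed for the test, and 56 of these (73.7%) differed between the 5 libraries beyond counting noise. The share was 40.2% among all 9202 tested genes, and it was higher for abundant genes, with 63.5% between 100 and 1000 CPM and 99.1% from 1000 CPM. Replicate 2 was the lowest library for 44 of the 76 genes and replicate 5 the highest for 42. Over all tested genes replicate 2 was lowest for 2220 and replicate 5 highest for 1646. The summed level of the 6 lists was 30788, 26398, 39355, 42365 and 49658 CPM in replicates 1 to 5. Krt18 and Krt8, which are also general epithelial genes, are part of it.

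General epithelial genes were present in all libraries, with Epcam, an epithelial adhesion molecule, at 184, 238, 242, 307 and 345 CPM and the cadherin Cdh1 at 169, 230.5, 215, 244 and 291 CPM. Both were lowest in replicate 1, as were 15 of the 16 tested members of that list.

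Replicate 2 had the highest sums for keratinocyte, intestinal, secretory, microfold, medullary and cortical epithelial genes. The neuroendocrine list summed to 1142, 856, 1026, 1107 and 882 CPM, lowest in replicate 2. Most of it was the granule protein gene Chga, at 978, 628, 884, 936 and 701 CPM. Of the 5 tested members of that list, 2 were highest in replicate 2 and 1 was lowest there. The ciliated list summed to 328, 392, 326, 524 and 597 CPM, highest in replicate 5. Most of it was Tppp3, at 219, 221, 218, 341 and 429.8 CPM. Its 4 tested members were highest in replicates 2, 3, 4 and 5, with 1 member each. Markers of keratinocyte-like mimetic cells summed to 3151 CPM in replicate 2 and 139 to 376 CPM in the other 4. All 10 tested members were highest in replicate 2. Krtdap, a keratinocyte differentiation protein, was at 37.1, 1097, 40.1, 8.03 and 11.3 CPM, the suprabasal keratin Krt10 at 21.2, 438, 69.00, 20.1 and 41.1 CPM and Sbsn, suprabasin, at 81.7, 526, 115, 61.6 and 106 CPM. The list averaged 824 ± 1304 CPM (SD, n = 5) with replicate 2 and 242 CPM without it.

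Intestinal and secretory lists were also highest in replicate 2. The enterocyte list summed to 465, 7744, 818, 1364 and 1786 CPM, most of it Reg3g, an antibacterial lectin, at 235, 6599.5, 539, 1123 and 1413 CPM. The goblet and secretory list summed to 805, 5557, 1775, 1268 and 1834 CPM. Its member Bpifa1, an airway secretory protein, was at 155, 2412, 253, 102 and 45.4 CPM. Of its 10 tested members 6 were highest in replicate 2, 2 in replicate 3, and 1 each in replicates 4 and 5. Without replicate 2 the means of the enterocyte and the goblet and secretory lists were 1108 and 1421 CPM, against 2435 and 2248 CPM with it. The microfold list summed to 1592, 3369.8, 2082, 2437 and 3128 CPM, and 6 of its 8 tested members were highest in replicate 2. The other two were highest in replicate 5, among them Gp2, a receptor of microfold cells, at 339.6, 475, 487, 656 and 983 CPM.

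The medullary and cortical thymic epithelial lists also had their highest sums in replicate 2, which was the highest library for 8 of 10 and 5 of 8 tested members. Aire, which drives the display of tissue-restricted antigens, was at 46.7, 214, 13.8, 30.8 and 19.9 CPM, Fezf2, another such factor, at 33.96, 359, 58.96, 57.6 and 86.5 CPM and the basal keratin Krt5 at 63.7, 756, 182, 206 and 291 CPM. The medullary list summed to 2168 CPM in replicate 2 and 375 to 760.2 CPM in the other 4, with means of 909 CPM with replicate 2 and 594 CPM without it. Foxn1, the regulator on which thymic epithelium depends, was at 133 CPM in replicate 2 and 10.04 to 21.4 CPM elsewhere, and Prss16, a cortical protease, at 226 and 19.1 to 61.6 CPM. Psmb11, the defining proteasome subunit of cortical epithelium, lay near the floor at 0 to 9.04 CPM.

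MHC class II genes had the same leading library. H2-Ab1, a class II beta chain, was at 2926, 7237, 1394, 1342 and 1475 CPM and the invariant chain Cd74 at 2033, 4751, 774, 798 and 953 CPM. In both, replicate 2 was highest, replicate 1 next, and replicates 3 to 5 close together. The class II list summed to 9166, 20817, 3953, 3869 and 4544 CPM, with a mean of 8470.0 CPM with replicate 2 and 5383 CPM without it. Medullary epithelium, dendritic cells and macrophages carry these molecules too, and the part of other cells in these levels was not tested. The class I list varied less, at 17419 to 25654 CPM in sum.

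Replicate 1 had the highest sums of the thymocyte, B cell, dendritic cell and macrophage lists. The granulocyte and mast cell list summed to 176, 399, 123, 205 and 135 CPM and was instead highest in replicate 2. Of the 3 tested B cell genes, 2 were highest in replicate 1. Cd79b, the most abundant of that list, was at 171, 111, 169, 162 and 187 CPM, highest in replicate 5. Thymocyte and T cell markers summed to 1684 CPM in replicate 1 and 146 to 346 CPM in the other 4. Thy1, a surface protein of thymocytes and of fibroblasts, was at 429.8, 55.7, 99.1, 100.4 and 42.5 CPM, Lck, the proximal kinase of the T cell receptor, at 216, 36.2, 28.9, 26.8 and 19.9 CPM and Dntt, the terminal transferase of immature lymphocytes, at 184, 30.1, 12.5, 33.5 and 18.4 CPM. Cell cycle genes summed to 1194 CPM in replicate 1 and 245 to 413 CPM elsewhere, and all 12 tested members were highest in replicate 1. Top2a, a topoisomerase of dividing cells, was at 184, 43.7, 17.6, 54.9 and 12.8 CPM. The thymocyte list averaged 538 CPM with replicate 1 and 251 CPM without it, and the cell cycle list 498 and 323 CPM.

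Macrophage markers summed to 2648, 1552, 804, 874 and 259.6 CPM. The complement component C1qa was at 454, 211, 47.7, 177 and 25.5 CPM and the lysozyme Lyz2, whose reads may be shared with its paralog Lyz1, at 783, 404, 439, 181 and 60.99 CPM. Replicate 5 was lowest in 9 of the 10 tested members. Fibroblast markers summed to 3949, 1110.2, 3308, 2879.9 and 2393 CPM and were lowest in replicate 2 in 10 of 11 tested members, among them the proteoglycan Dcn at 1254, 200.3, 669, 554 and 738 CPM. Endothelial markers summed to 1468, 1012, 2317, 2154 and 1182 CPM and were highest in replicate 3. Of the erythroid list Alas2, of haem synthesis, was the only gene analysed, at 4.02 to 12.7 CPM.

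Replicate 5, with the highest tuft cell sum, had the lowest macrophage, thymocyte and cortical epithelial sums. It also had the highest ciliated sum, most of it Tppp3. Its medullary, microfold, enterocyte, and goblet and secretory sums were the second highest. Replicates 1 and 2, with the lowest tuft cell sums, had the highest thymocyte and the highest keratinocyte sums respectively. The part of other cells in the levels of tuft cell genes was not tested.

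**Figure D3:**
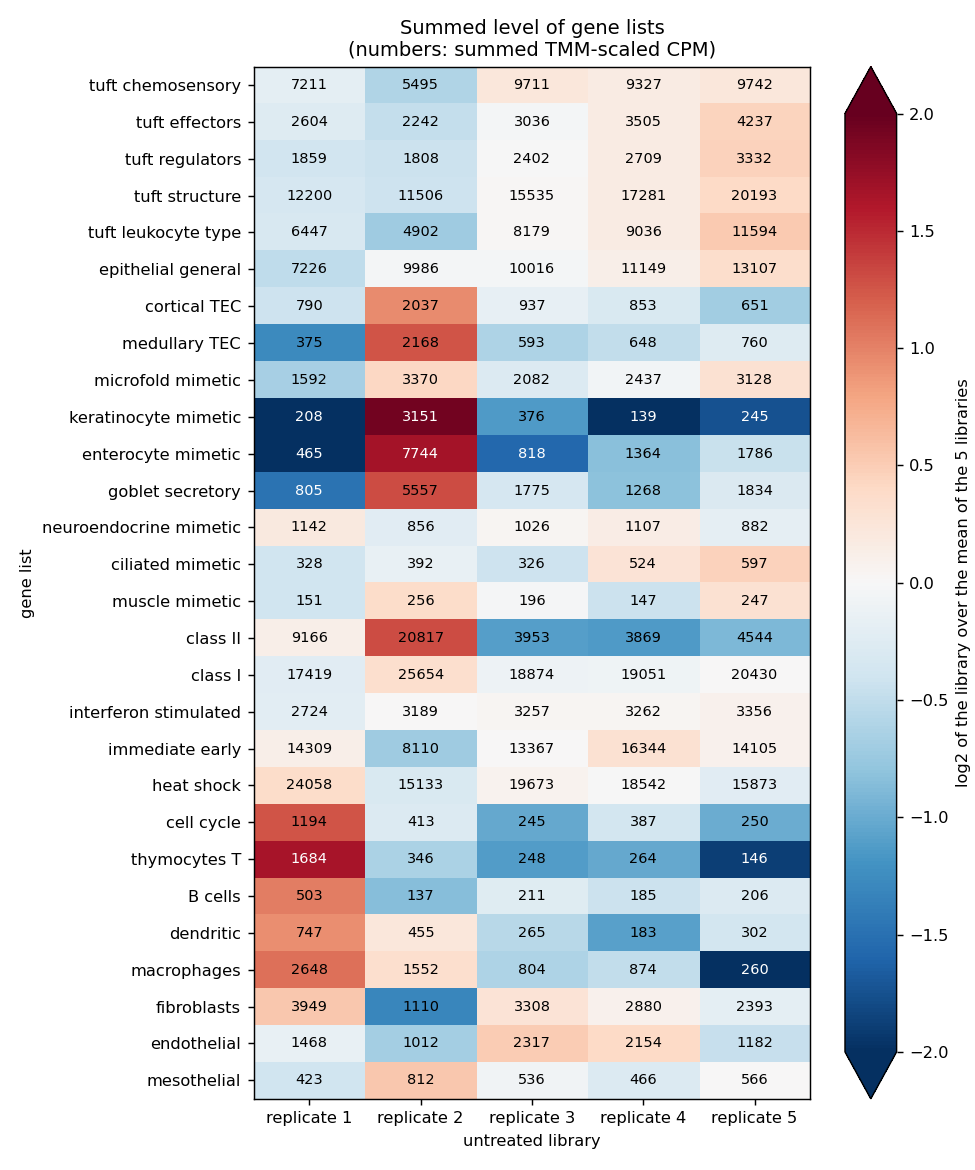
Colour gives log2 of a gene list's summed level in a library over its mean in the 5 untreated libraries, and the number in each cell is the summed TMM-scaled CPM. Replicate 2 is highest for keratinocyte mimetic genes (3151 CPM) and class II genes (20817 CPM), and replicate 1 for thymocyte genes (1684 CPM).

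Some genes had nearly all their counts in 1 library. In replicate 1 they were led by Jchain, the joining chain of polymeric antibodies, at 213 CPM against 0 to 9.93 CPM elsewhere. Siglech, a lectin of plasmacytoid dendritic cells, was at 166 against 0 to 11.3 CPM, the chemokine Ccl4 at 266 against 0 to 24.1 CPM, and Mzb1, of plasma and marginal zone B cells, at 98.7 against 1.34 to 8.51 CPM. In replicate 2 the gut hormone gene Cck had 67 counts, and 0 in the other 4 libraries, which is at least 107-fold higher against a floor of 3 counts over those 4. The pancreatic protein gene Reg1 had 176 counts in replicate 2 and 1 in the other 4 libraries together, the gut peptide Pyy 117 and 3, the lectin Reg3b 70 and 2, and the ribonuclease Ear1 70 and 2.

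In replicate 3 the gene with the highest ratio was Clca1. Clca1, a secreted goblet cell protein, was at 6.37, 52.7, 682, 60.2 and 35.5 CPM in replicates 1 to 5. The ribonuclease Ang4 was at 0, 79.8, 316, 1.34 and 7.09 CPM, Sprr2d, a small proline-rich protein of squamous epithelium, at 0, 60.3, 216, 0 and 12.8 CPM and the trefoil peptide Tff3 at 9.55, 152, 349, 6.69 and 7.09 CPM. For these 3 genes replicate 2 was next below replicate 3. In replicate 4 the leading gene was Sst, which encodes somatostatin, at 6.37, 18.1, 0, 429.8 and 2.84 CPM, on 321 counts in replicate 4 and 20 in the others together. In replicate 5 it was Pck1, an enzyme of gluconeogenesis, at 75.2 CPM against 3.76 to 9.37 CPM, an 11.4-fold ratio to the mean of the others, and the next genes had ratios of 2.57 to 3.36.

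**Figure D4:**
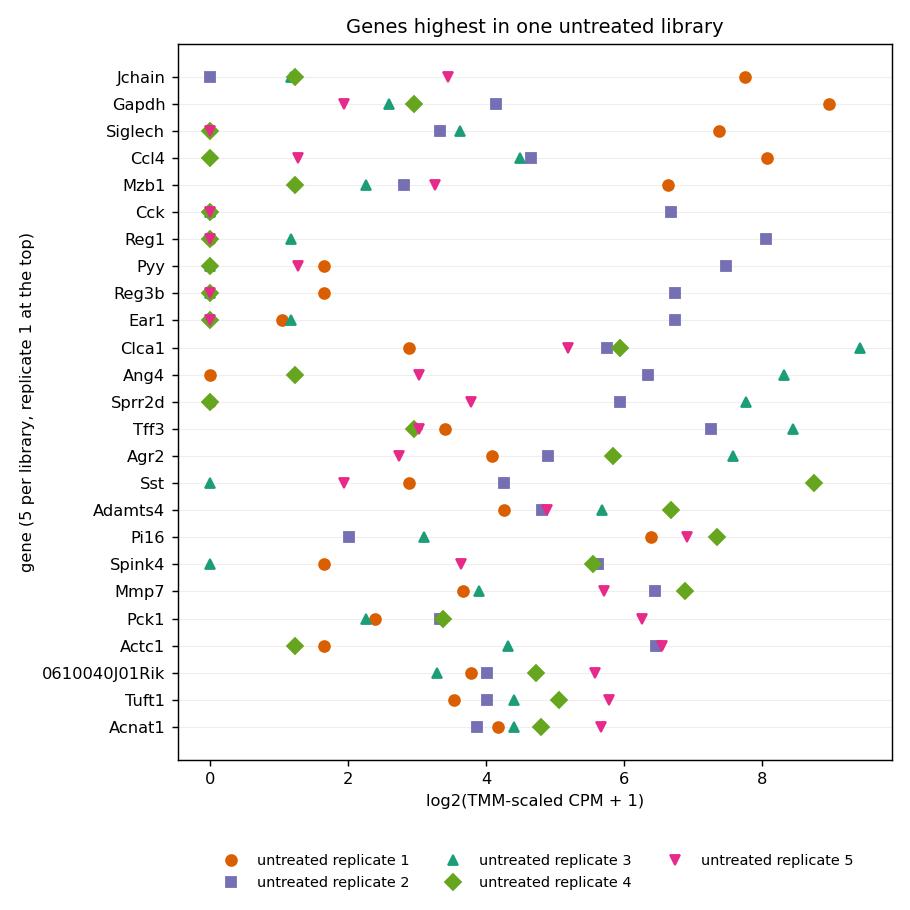
Level, as log2(TMM-scaled CPM + 1), of the 5 genes with the highest ratio of 1 library to the mean of the other 4, for each of the 5 untreated libraries. Cck has a count in replicate 2 alone (100.9 CPM), and Sst reaches 429.8 CPM in replicate 4.

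Gapdh, a glycolytic enzyme often used as a reference gene, was at 501, 16.6, 5.02, 6.69 and 2.84 CPM in replicates 1 to 5. This is a 64.4-fold ratio of replicate 1 to the mean of the other 4, on 472 counts against 22. Other glycolytic genes had another pattern. Pkm, pyruvate kinase, was at 591, 610.1, 592, 687 and 668 CPM and did not pass the test, Aldoa was at 439 to 625 CPM and Ldha at 272 to 434 CPM. Pgk1 and Pgam1, of the same pathway, lay near the floor in every library, at 1.42 to 6.37 and 0 to 6.37 CPM. Exons of Gapdh overlap Iffo1 on the opposite strand, and the treatment of reads with several matches is not stated in the labels.

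Gene by gene, 3696 of the 9202 tested genes (40.2%) differed between the 5 libraries beyond counting noise. Between replicates 3, 4 and 5 alone 1018 of 8765 genes did (11.6%), and 994 of them were also among the 3696. These 3 libraries were grouped after seeing that they lay close together, so a smaller share and spread follow from the choice. Of the 3696 genes, 1043 were highest in replicate 1 and 1059 in replicate 2, against 441 to 613 in each of the others. The biological coefficient of variation, the spread left after counting noise, was 31.4% over the 5 libraries and 18% over replicates 3 to 5 (edgeR common dispersion). The median tested gene had a coefficient of variation (CV) of 25.2%, and the median that counting alone gives was 17.1%. The median excess CV, the part left once counting noise is taken off, was 17.8%.

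At the steady end, 575 of the 4181 genes of at least 50 CPM had no excess over counting noise. The most abundant of them were Uba1, the first enzyme of ubiquitin transfer, at 411, 455, 422, 432 and 448 CPM, and the respiratory chain subunit Ndufb10 at 356, 368, 394, 355 and 353 CPM. The segregase Vcp was at 336 to 385 CPM, Cenpb, which binds centromeres, at 337 to 366 CPM and the mitochondrial malate dehydrogenase Mdh2 at 309 to 355 CPM. A spread smaller than counting noise, which was 5.48% for Uba1, cannot be seen at this depth.

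At the variable end stood Reg1 (excess CV 222%), Gapdh (207%), Sst (207%), the wound keratin Krt16 (205%) and Krtdap (201%), each of which rests on 1 library, replicate 2 for Reg1, Krt16 and Krtdap, replicate 1 for Gapdh and replicate 4 for Sst. Krt16 was at 253 CPM in replicate 2 and 1.34 to 7.09 CPM in the others. By class, beside 40.2% of all tested genes, all 19 tested keratins and all 9 tested genes of MHC class II with Cd74 passed the test. Of the ribosomal protein genes, with a median level of 1073 CPM, 74 of 77 passed (96.1%), with a median excess CV of 27%. Among all tested genes from 1000 CPM 99.1% passed, and 63.5% between 100 and 1000 CPM. Of the respiratory chain genes, with a median level of 274 CPM, 40 of 88 passed (45.5%, near the share of all tested genes). Their median excess CV was 8.84%. Zinc finger genes, with a median level of 12.2 CPM, passed in 19 of 139 (13.7%).

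**Figure D5:**
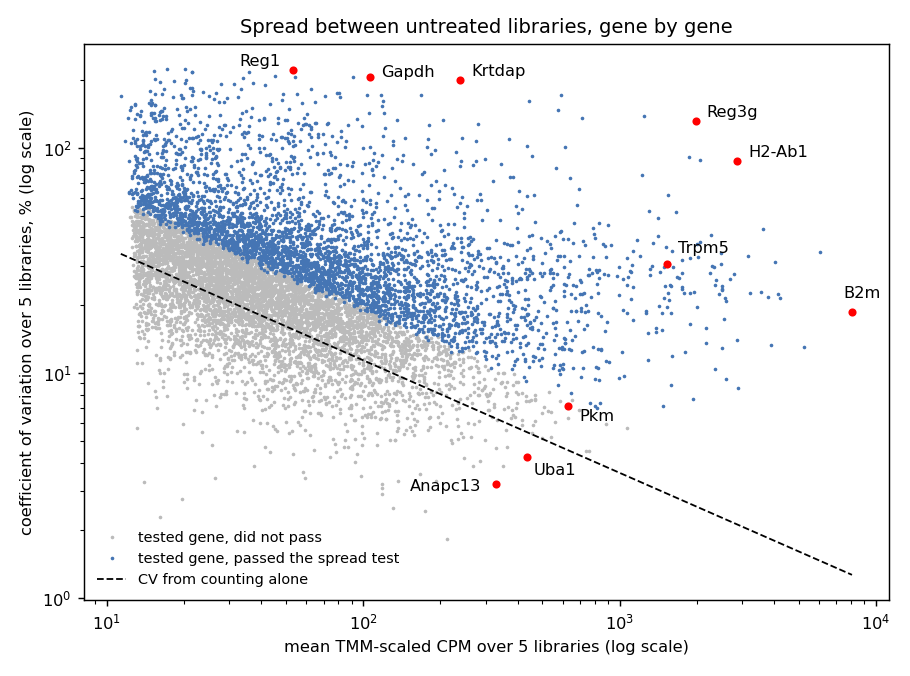
Coefficient of variation over the 5 untreated libraries against the mean TMM-scaled CPM of each tested gene, both on log scales, with genes that passed the spread test in colour and the spread expected from counting alone as a dashed line. Reg1 and Gapdh lie far above the line, with excess CVs of 222% and 207%.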

How the data were processed

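The files hold the authors' raw counts per gene and library for 9 MARS-seq libraries, and beside them a normalized signal that equals the deposited counts divided by 1 size factor per library. The 5 untreated libraries were used here. Per the submitters' processing notes the tools were bcl2fastq, cutadapt, STAR 2.5.2b, HTSeq and DESeq2 with the genome build mm10. Their roles, the strand setting and the handling of molecular identifiers are not given there, and PCR duplicates may remain in the counts. The highest of the 9 libraries had 6 counts or more for each gene in the deposited table.

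From the counts, CPM were computed with TMM scaling (edgeR 4.0.16 in R 4.3.3). Each gene with a mean of at least 10 counts (9202 of 13223) was tested for spread beyond counting noise with a Pearson chi-square test on 4 degrees of freedom and Benjamini-Hochberg adjustment at 0.05. The excess CV is the square root of the squared CV minus the squared counting CV, with 0 where that difference was negative. The biological coefficient of variation is the square root of edgeR's common dispersion. The spread test was tested on simulated data. No pair of libraries agreed within sampling noise, with a chi-square per degree of freedom of 2.57 to 11.4 over the 10 pairs. All 5 were counted as separate libraries. Whether they came from separate mice cannot be read from this value, since PCR duplicates may remain in the counts.

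Symbols were matched to GENCODE M21 on GRCm38 (13008 of 13223), and promoters came from RefSeq GRCm38.p6. Genes were picked by rule. They were the 30 most abundant, the 6 markers and up to 4 of the most abundant members of each of 35 gene lists. Of genes of at least 50 CPM, the 15 with the largest and the 15 with the smallest excess CV were taken (ties at 0 broken by abundance). For each library, the 5 genes of at least 20 CPM with the highest ratio to the mean of the others were taken. The 10 most abundant non-coding genes and the 10 most abundant transcription factors of the tuft regulator and immediate early lists were added. Not every gene picked this way is described above. Non-coding genes were taken by annotated biotype. Other members of the lists are named for their role. The members and lists were chosen with earlier results of these data known. Alternatives covered other scalings, count filters, another test, thinning and the omission of each library.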

Additional observations from a re-analysis of the deposited data

Results flagged for a closer look

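In 56 of 189 values examined over the 5 libraries, 1 library lay so far from the rest that its gap to the nearest other library, as a share of the whole range, passed Dixon's 95% critical value of 0.71 for 5 samples. Chance alone gives about 1 in 20 for values picked without regard to the libraries. Many of the genes here were named because 1 library stood far above the rest, so the number of such values is no test. The values below are that share.

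Replicate 2 was the high library in 28 values. They were the keratinocyte list (0.921), enterocyte list (0.819), chemokine list (0.799), cortical (0.794) and medullary (0.785) epithelial lists, the goblet and secretory list (0.784) and the share of counts of all chemokine genes (0.783). Epithelial and mimetic cell genes among them were Krt16 (0.977), Krtdap (0.971), Bpifa1 (0.912), Foxn1 (0.907), Sbsn (0.884), Krt10 (0.883), Fezf2 (0.838), Aire (0.836), Reg3g (0.815) and Prss16 (0.795). Genes with counts in nearly no other library were Cck (1.0), Reg1 (0.995), Pyy (0.988), Ear1 (0.988) and Reg3b (0.98). Immune and inflammatory genes were B2m (0.873), Ptgs2 (0.861), Ccl5 (0.794), Il13 (0.787), Ccl25 (0.774) and H2-Ab1 (0.731). Klf4 was low in replicate 2 (0.763).

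Replicate 1 was the high library in 20 values. They were the thymocyte (0.87), cell cycle (0.823) and B cell (0.799) lists, the total count (0.712) and the share of counts of translation factors (0.721). Lymphoid, myeloid and cycling cell genes among them were Jchain (0.953), Siglech (0.932), Mzb1 (0.926), Lck (0.917), Ccl4 (0.91), Dntt (0.878), Ptprc (0.858), Thy1 (0.851) and Top2a (0.753). The others were Gapdh (0.972), the ribosomal protein genes Rps29 (0.972) and Rplp1 (0.72), and the heat shock genes Hspe1 (0.841), Hsph1 (0.834) and Hspa8 (0.804). Replicate 1 was low for the interferon-stimulated list (0.736) and for the share of counts of solute carriers (0.712).

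In replicate 3 the high values were Clca1 (0.92), Ang4 (0.747) and Sprr2d (0.721), in replicate 4 Sst (0.958), and in replicate 5 Pck1 (0.921).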

How the results depend on the processing

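The count of genes that differed beyond counting noise was 3711 with DESeq2 size factors, 3825 with the library total alone, 4812 of 13218 genes without a filter on low counts, 3732 with a Poisson likelihood ratio test, 3666 without the 20 most abundant genes and 3330 after thinning to the smallest library. With a mean of at least 50 counts it was 1946 of 3275 genes, a smaller set tested. Without each library in turn it was 2539 to 3572, lowest without replicate 1. The common biological coefficient of variation was then 25.9% to 33.7%, and the median of DESeq2's gene-wise dispersions gave 17.8%, which is a median over genes and not a common value. Without replicates 1 and 2, chosen after seeing the data, 1018 of 8765 genes differed and the coefficient was 18%.

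Without each library in turn the genes holding 50% of the counts numbered 726.75 to 754.5, the genes detected 12750 to 12820, and the summed markers were at 6810 to 8235 CPM. Under the 3 other scalings the markers summed to 7396 to 7456 CPM. With levels divided by the longest annotated transcript, the ranks of 96 of the 208 genes named by rule moved by more than their SD over the libraries. No paired analysis was possible because the libraries are 1 group with no contrast. At this depth a gene under a mean of 10 counts was not tested for spread.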

Other observations

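Cytokine and chemokine genes were read in the same libraries. Il10, an anti-inflammatory cytokine, was at 142, 99.4, 142, 169 and 214 CPM in replicates 1 to 5, lowest in replicate 2 and highest in replicate 5. Il13, a type 2 cytokine, was at 21.2, 99.4, 0, 4.02 and 0 CPM, with most of its counts in replicate 2. Of 19 tested chemokine genes 18 passed the spread test, which 40.2% of all tested genes did, and 10 were highest in replicate 2. Ccl5, a chemoattractant of T cells, was at 174, 684, 41.4, 69.6 and 56.7 CPM and Ccl25, which draws thymocyte progenitors to thymic epithelium, at 90.2, 491, 52.7, 100.4 and 152 CPM. Both were highest in replicate 2. Cxcl10, an interferon-induced chemokine, was instead high in replicates 2 and 4, at 99.8, 586, 147, 539.6 and 226 CPM.

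Interferon-stimulated genes were expressed throughout, with a summed level of 2724, 3189, 3257, 3262 and 3356 CPM. Of the 17 tested members of the list, 6 were lowest in replicate 1 and 3 were highest there. Irf7, an interferon response factor, was at 455, 678, 765, 805 and 865 CPM, lowest in replicate 1. Bst2 was at 510, 396, 469, 428 and 313 CPM, highest in replicate 1. Ifi27 was at 469 to 555 CPM and did not pass the test, and Isg15, a ubiquitin-like modifier, was at 201, 425, 252, 264 and 323 CPM. Among genes of other mimetic cells, the granule protein Chga of neuroendocrine cells was abundant in every library, at 978, 628, 884, 936 and 701 CPM. Tppp3, a tubulin-binding protein, was at 219, 221, 218, 341 and 429.8 CPM and Foxj1, the regulator of ciliated cells, at 33.96, 99.4, 26.3, 60.2 and 55.3 CPM. Tppp3 was highest in replicate 5 and Foxj1 in replicate 2. The myogenic factor Myog stood at 21.3 to 38.8 CPM and did not pass the test.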
